A study of Homo sapiens with 6 samples.

Results

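Transcripts for 9 genes of heme biosynthesis were examined in RNA-seq of K562 cells: ALAS1, ALAS2, ALAD, UROS, UROD, CPOX, PPOX, FECH and SLC25A38. They were chosen by symbol, as enzymes of the pathway and the mitochondrial carrier that feeds it, and each symbol matched 1 of the 61661 rows of the count table. K562 is an established human line from a chronic myeloid leukemia in blast phase, and it is known for its erythroid leaning. There were 6 libraries: 2 of the shCTR line, which the labels call wild type, 2 of the shMETTL3 line and 2 of the shMETTL14 line. METTL3 and METTL14 form the complex that writes N6-methyladenosine (m6A) into mRNA, and the design asked which transcripts change once either is knocked down. The shCTR line carried a control virus with a nonsense insert and the shMETTL3 line an shRNA from a U6 promoter in a GFP and puromycin lentivirus; for the shMETTL14 line the vector is not given in the sources used here. K562 cells were cultured in RPMI medium with serum. Nothing says that the 2 libraries of a line came from separate cultures, so p-values measure only the spread between these libraries, which may be technical.

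Heme is an iron-holding porphyrin that hemoglobin, cytochromes and catalase need. The pathway starts in the mitochondrion, where an aminolevulinate synthase joins glycine and succinyl-CoA. It passes through the cytosol, where porphyrin rings are assembled, and returns to the mitochondrion for the last oxidations and the insertion of iron. The first step exists in a pair of forms. ALAS1 serves all cells, whereas ALAS2 belongs to the erythroid lineage, is a target of the erythroid factor GATA1 and carries an iron-responsive element in its 5′ UTR. Red cell precursors draw most of the heme they make through ALAS2.

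Library totals ran from 19292574 to 20115304 counts. METTL3 had 1788 and 1728 counts in shCTR, 1031 and 938 in shMETTL3, and 1731 and 1498 in shMETTL14, with a log2 fold change of -0.87 in shMETTL3 (SE 0.0783, adjusted p = 3.44e-07). METTL14 had 656 and 655 counts in shCTR, 752 and 710 in shMETTL3, and 375 and 404 in shMETTL14, with a log2 fold change of -0.76 in shMETTL14 (SE 0.0886, adjusted p = 1.4e-05). Each targeted mRNA was thus lower in its own line, as the labels have it. Every adjusted p comes from the quasi-likelihood test of edgeR, corrected over all 17686 genes tested by Benjamini and Hochberg's procedure, and a gene is said to rise or fall at an adjusted p under 0.05. Levels are given as CPM, that is, counts relative to the library total after scaling by TMM factors. The erythroid markers were present, and all 10 listed were tested. Their summed level was 1650 to 1660 CPM in shCTR, 1840 in shMETTL3 and 1660 to 1690 in shMETTL14. HBE1, which is on this list, rose in mean CPM by at least as much as the sum in each knockdown (levels below). The sum therefore does not show a rise across the list. Of these markers, 4 were higher and 1 lower in shMETTL3, and 3 were higher in shMETTL14. Of 5 megakaryocytic markers, PF4, GP9 and GP1BB were at 0 in every library, and the sum of the list was 11.5 to 13.3 CPM in shCTR, 20.2 to 22.5 in shMETTL3 and 10.8 to 11.3 in shMETTL14, with 1 marker tested and higher in shMETTL3. The summed myeloid markers lay at 42.8 to 44.4 CPM in shCTR, 16.0 to 17.4 in shMETTL3 and 60.5 to 66.1 in shMETTL14. Of those 6 markers, 4 had at most 3 counts in every library. Among the 2 tested, 1 was lower in shMETTL3 and 1 higher in shMETTL14. The summed list of epithelial, fibroblast and packaging cell markers lay at 438 to 454, 342 to 355 and 457 to 479 CPM. Of the 4 tested, 1 was higher and 3 were lower in shMETTL3, and 1 was lower in shMETTL14. Summed lymphoid markers lay at 5.87 to 6.27 CPM in shCTR, 8.81 to 9.47 in shMETTL3 and 6.46 to 7.14 in shMETTL14, and 1 of the 2 tested was higher in shMETTL3. The part of these lists in the results below was not tested.

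ALAS2 was the member that moved most. It rose 3.42-fold in shMETTL3 and 2.27-fold in shMETTL14, and it was the only member that rose in both lines. PPOX, the oxidase of the penultimate step, rose 1.37-fold in shMETTL14 alone among the 2 knockdowns, and the lines differed from each other in it. ALAD was lower in shMETTL3 than in shMETTL14. In counts, 1 of 9 members rose in shMETTL3, where 8.73% of all 17686 genes rose and 16.5% were called in either direction, and 2 of 9 rose in shMETTL14, where 3.43% rose and 6.69% were called. Between the knockdowns 3 of 9 were called, against 12.1% of all genes. The remaining 6 members passed no test. All 9 passed the filter on low counts.

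**Figure D1:**
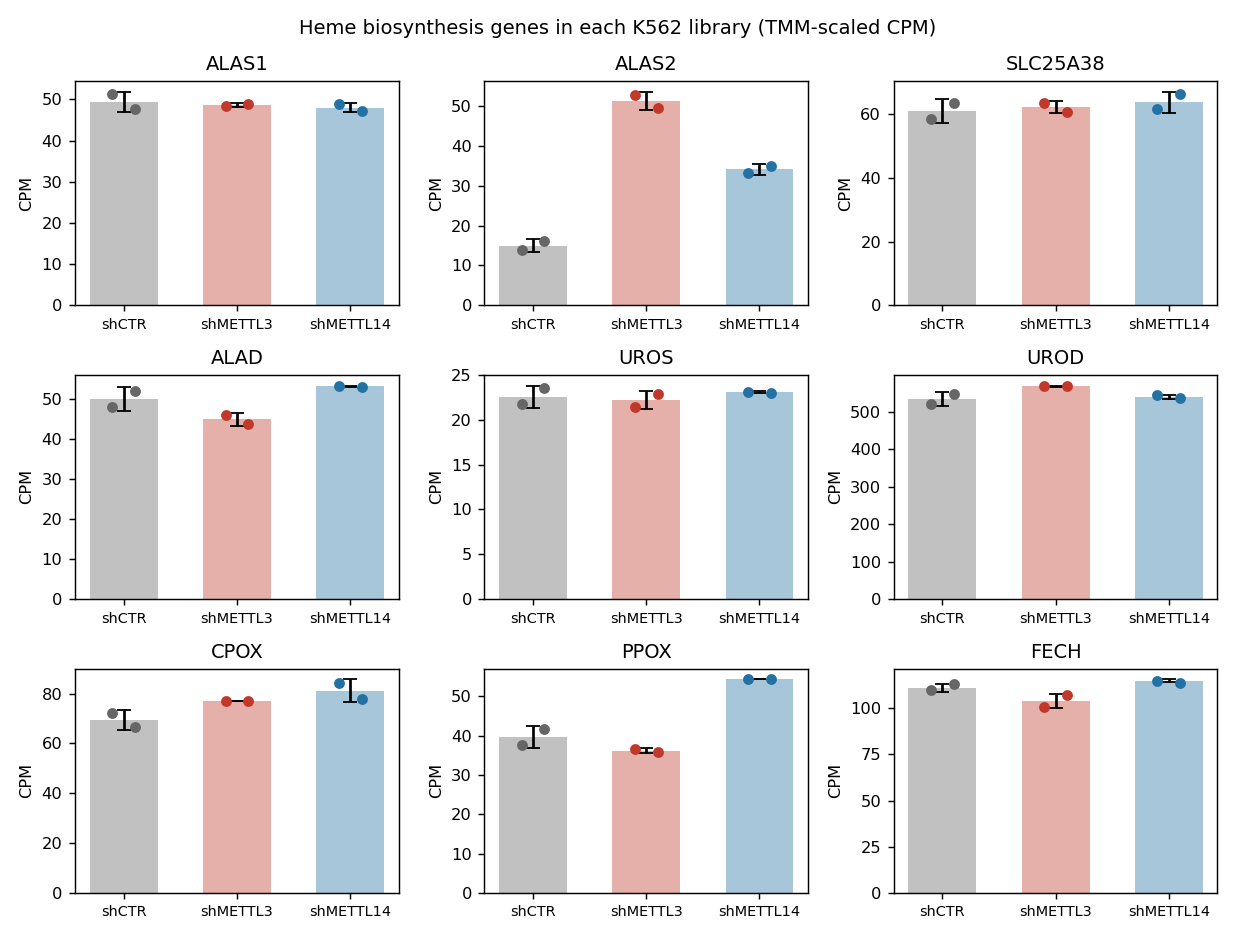
Level of each of the 9 heme biosynthesis genes in TMM-scaled CPM, with a point per library, bars at the mean of 2 libraries and error bars of 1 SD; each panel has its own axis from 0. ALAS2 lies at 13.9 and 16.1 CPM in shCTR, 33.2 and 35.0 in shMETTL14 and 49.6 and 52.9 in shMETTL3, while ALAS1 keeps to 47.2 to 51.2 CPM in all 6 libraries.

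ALAS2 (ENSG00000158578) lies on the minus strand of chromosome X, from 55009055 to 55031064 of GRCh38. The sequence before its RefSeq start is shown because ALAS2 is the member that changed in both lines. In the 250 bases before that start (GRCh38.p14), the letters GATAA, the core bound by GATA factors, occurred once on each strand, and TTATC is the same core read from the other strand. The following windows of 30 bases hold them in capitals.
ALAS2, bases 140 to 111 before the start, chrX:55031088-55031117, minus strand: gctactttgggttTTATCtctagcaaggaa
ALAS2, bases 43 to 14 before the start, chrX:55030991-55031020, minus strand: tcagaggagaaggGATAAatgccaggtcct
PPOX, bases 76 to 47 before its second start, chr1:161166570-161166599, plus strand: gaGGGTGTGGcccTTATCtgcacccagcag
RefSeq and GENCODE 29 place the start differently. In GENCODE the ALAS2 transcript starts at 55031064, so the former ALAS2 window lies before it and the latter, all 30 bases, within its first exon, as does the PPOX window in the first exon of PPOX. In the PPOX window, the letters GGGTGTGG are the reverse complement of CCACACCC, the motif of KLF1-type factors. Of the 9 members, 8 had a promoter entry in RefSeq, with 10 starts in all, and 3 of them, ALAS2, CPOX and PPOX, held GATAA on either strand. CPOX held it at bases 207 to 203 and 125 to 121 before its start, and PPOX held it before its second start only. The same letters occurred in 20.4% of 35116 promoters of that length, a share of starts and not of genes, and CCACACCC on either strand in 2.97%. The letters TATAAA, read on the gene's strand, occurred in none of the members' windows and in 6.80% of all promoters. GATA1, which binds the GATA core, had log2 fold changes of 0.09 (adjusted p = 0.374) and -0.10 (adjusted p = 0.421) and passed neither test against shCTR.

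The m6A mark itself was not measured in these files. The letters GGACT, a common form of the sequence in which m6A is written, were searched in the longest coding transcript of each member (GENCODE 29). ALAS2 held 4 of them in 2027 nt, shown here in capitals with 8 bases to each side.
ALAS2, position 123, 5′ UTR, across an exon junction: gggcaacaGGACTttaggttc
ALAS2, position 885, coding, chrX:55020392-55020396: caccagaaGGACTcagccctg
ALAS2, position 1225, coding, chrX:55015655-55015659: atgctgtaGGACTgtatgggt
ALAS2, position 1757, coding, chrX:55009321-55009325: gctggcttGGACTgcggtggg
PPOX, position 1470, coding, chr1:161170725-161170729: cacaattaGGACTgaaggaga
The density was 1.97 per kb in ALAS2 and 0.575 per kb in PPOX, which held 1 match in 1740 nt. ALAS1, which did not pass a test, held 4 matches, or 1.65 per kb. Matches in the other members ran from 2 in CPOX and UROD to 5 in UROS, and densities from 0.709 per kb in CPOX to 1.86 in SLC25A38. The UROS transcript searched is coding only in bases 1 to 328, and its 5 matches all lie after that part. Of 1215 transcripts within 10% of the length of ALAS2, 89.5% held at least 1 match, with a median of 1.02 per kb. For the length of PPOX the median was 1.12 per kb. Whether any of these sites carries the mark cannot be read from these data.

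ALAS1 and ALAS2, the enzymes of the first and rate-setting step, moved apart. ALAS2 had 274 and 309 counts in shCTR, 1040 and 996 in shMETTL3, and 652 and 687 in shMETTL14. These are 13.9 and 16.1 CPM, 52.9 and 49.6 CPM, and 33.2 and 35.0 CPM in the same order, so no library of any line reached into the range of another. The mean was 15.0 ± 1.61 CPM (SD, n = 2) in shCTR, 51.3 ± 2.34 in shMETTL3 and 34.1 ± 1.32 in shMETTL14. In shMETTL3 the log2 fold change was 1.77 (SE 0.0917, 95% interval 1.58 to 1.97, adjusted p = 3.2e-10), and in shMETTL14 it was 1.19 (SE 0.0945, 95% interval 0.99 to 1.38, adjusted p = 1.51e-07). Both knockdowns are set against the same shCTR libraries. In bulk RNA, more cells that express a gene and more of its mRNA in each cell cannot be told apart. The rise was the larger in shMETTL3: tested directly between the knockdowns, the log2 difference was 0.59 (SE 0.0832, 95% interval 0.41 to 0.76, adjusted p = 6.4e-05), a ratio of 1.50. Among all 17686 genes, the log2 fold change of ALAS2 stood at place 141 from the top in shMETTL3 and at place 209 in shMETTL14.

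ALAS1 (ENSG00000023330, chromosome 3, 52198086 to 52214327, plus strand) had 51.2 and 47.7 CPM in shCTR, 48.4 and 48.9 CPM in shMETTL3, and 48.8 and 47.2 CPM in shMETTL14. All 3 lines overlapped. Its log2 fold change was -0.02 in shMETTL3 (SE 0.072, adjusted p = 0.869) and -0.04 in shMETTL14 (SE 0.0721, adjusted p = 0.796). The 95% intervals ran from 0.887-fold to 1.09-fold in shMETTL3 and from 0.875-fold to 1.08-fold in shMETTL14.

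The balance of the synthases was compared per length, as CPM per kb of the longest transcript. ALAS2 stood at 6.84 and 7.96 CPM per kb in shCTR, 26.1 and 24.5 in shMETTL3, and 16.4 and 17.3 in shMETTL14. ALAS1 stood between 19.4 and 21.1 CPM per kb in all 6 libraries. Of the summed level of both synthases, ALAS2 made up 24.5% and 28.9% in shCTR, 56.8% and 54.9% in shMETTL3, and 44.9% and 47.1% in shMETTL14. The sum itself was 27.7 ± 0.217 CPM per kb (SD, n = 2) in shCTR, 45.3 ± 0.985 in shMETTL3 and 36.6 ± 0.178 in shMETTL14. ALAS2 was therefore the minor synthase mRNA in shCTR and the major one in shMETTL3 on this length scale. The ratio of ALAS2 to ALAS1 was 0.365 ± 0.0572 (SD, n = 2) in shCTR, 1.26 ± 0.0682 in shMETTL3 and 0.853 ± 0.0533 in shMETTL14. With the median transcript length in place of the longest, the ratios were 0.814, 2.82 and 1.90, and ALAS2 was then the major mRNA in shMETTL14 too. ALAS2 shares 3 exon bases with APEX2, a DNA repair gene on the opposite strand. APEX2 also rose, by 0.51 in shMETTL3 (adjusted p = 0.000837) and by 0.52 in shMETTL14 (adjusted p = 0.00153) on the log2 scale.

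**Figure D2:**
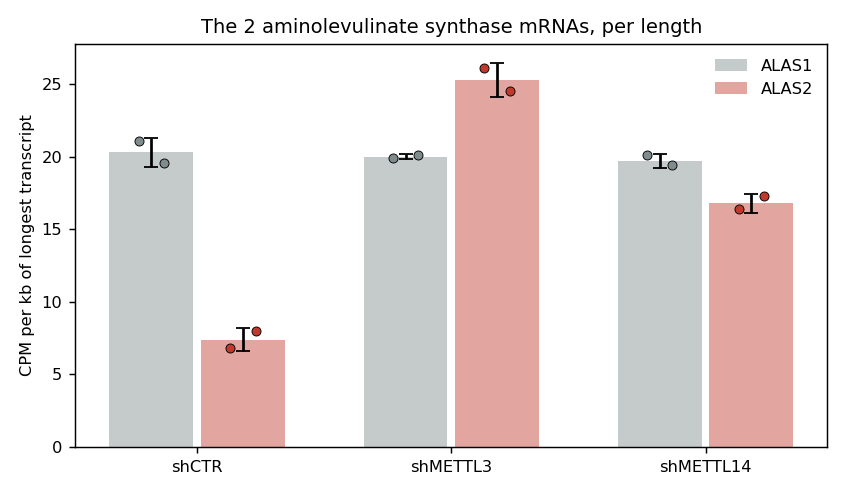
Levels of ALAS1 and ALAS2 as CPM per kb of the longest transcript in each line, with a point per library, bars at the mean of 2 libraries and error bars of 1 SD. ALAS1 stays between 19.4 and 21.1, and ALAS2 is below it in shCTR, close to it in shMETTL14 at 16.4 and 17.3, and above it in shMETTL3 at 24.5 and 26.1.

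SLC25A38 (ENSG00000144659) is the carrier of the inner mitochondrial membrane that brings in glycine for the synthases. It had 58.4 and 63.6 CPM in shCTR, 63.6 and 60.8 in shMETTL3, and 61.5 and 66.2 in shMETTL14, and the lines overlapped. The log2 fold changes were 0.03 (SE 0.0717, adjusted p = 0.829) and 0.07 (SE 0.0716, adjusted p = 0.66). The glycine carrier thus passed no test in the lines in which ALAS2 rose.

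The cytosolic members are ALAD, which joins aminolevulinate into porphobilinogen, UROS, which closes the ring, and UROD, which trims its side chains. UROD (ENSG00000126088) had 521 and 549 CPM in shCTR, 568 and 570 in shMETTL3, and 544 and 537 in shMETTL14. Its shMETTL3 libraries lay above the others, but the log2 fold change of 0.09 passed no test (SE 0.0548, adjusted p = 0.29), and that of shMETTL14 was 0.01 (SE 0.0548, adjusted p = 0.922). UROS (ENSG00000188690) kept to 21.4 to 23.5 CPM in all 6 libraries, with log2 fold changes of -0.03 and 0.03 (SE 0.0937 and 0.0935).

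ALAD (ENSG00000148218) had 47.8 and 52.0 CPM in shCTR, 46.0 and 43.7 in shMETTL3, and 53.2 and 52.9 in shMETTL14. The shMETTL3 libraries were the lowest and the shMETTL14 libraries the highest. Against shCTR, the log2 fold change was -0.15 in shMETTL3 (SE 0.0738, adjusted p = 0.167) and 0.09 in shMETTL14 (SE 0.0728, adjusted p = 0.532). Between the knockdowns, ALAD was lower in shMETTL3 by a log2 difference of -0.24 (SE 0.0734, adjusted p = 0.0345). That call was lost in 7 of 13 alternatives, among them DESeq2 (adjusted p = 0.121) and the removal of any knockdown library (adjusted p = 0.111 without shMETTL3-1, 0.303 without shMETTL3-2, 0.198 without shMETTL14-1 and 0.191 without shMETTL14-2), and the lowest adjusted p over the 13 was 0.0043. With a correction for GC content and length, ALAD also fell against shCTR in shMETTL3 (log2 fold change -0.20, adjusted p = 0.0312).

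The members of the last, mitochondrial steps are CPOX and PPOX, which oxidise the porphyrinogen, and FECH, ferrochelatase, which inserts the iron. PPOX (ENSG00000143224, chromosome 1, 161166410 to 161178013, plus strand) had 746 and 799 counts in shCTR, 719 and 718 in shMETTL3, and 1067 and 1065 in shMETTL14. As CPM, these were 37.7 and 41.7, 36.6 and 35.8, and 54.3 and 54.3. The shMETTL14 libraries stood well above the other 4, and the shMETTL3 libraries just under those of shCTR. The log2 fold change was 0.45 in shMETTL14 (SE 0.0752, 95% interval 0.29 to 0.61, adjusted p = 0.000716) and -0.13 in shMETTL3 (SE 0.0776, adjusted p = 0.256). Between the knockdowns, the log2 difference was -0.59 (SE 0.0757, 95% interval -0.74 to -0.43, adjusted p = 2.21e-05), the opposite direction to that of ALAS2. With the correction for GC content and length, PPOX also fell in shMETTL3 (log2 fold change -0.25, adjusted p = 0.00903). PPOX shares 1118 of its 4607 exon bases with B4GALT3 on the opposite strand, and whether the counting used strand is not given in the sources used here, so reads of the pair may not be separable. B4GALT3, a galactosyltransferase, passed neither test, with a log2 fold change of 0.04 in shMETTL3 and of 0.07 in shMETTL14.

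CPOX (ENSG00000080819) shares 163 of its 3232 exon bases with AC021660.3, a protein-coding gene on the same strand. Reads of the shared bases may not be separable. CPOX had 72.2 and 66.7 CPM in shCTR, 77.2 and 76.9 in shMETTL3, and 84.4 and 77.9 in shMETTL14. Every knockdown library was above both shCTR libraries. The log2 fold changes were 0.15 in shMETTL3 (SE 0.0696, adjusted p = 0.152) and 0.23 in shMETTL14 (SE 0.0694, adjusted p = 0.0573), and neither passed the test. The shMETTL14 value was called in 4 of 13 alternatives, with adjusted p from 0.0154 to 0.481 over all 13. Without the library shCTR-1 it was 0.28 (adjusted p = 0.0288). FECH (ENSG00000066926) had 110 and 113 CPM in shCTR, 101 and 107 in shMETTL3, and 115 and 114 in shMETTL14. Its shMETTL3 libraries were the lowest, yet the log2 fold changes of -0.10 (SE 0.0634, adjusted p = 0.333) and 0.04 (SE 0.0632, adjusted p = 0.754) passed no test.

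**Figure D3:**
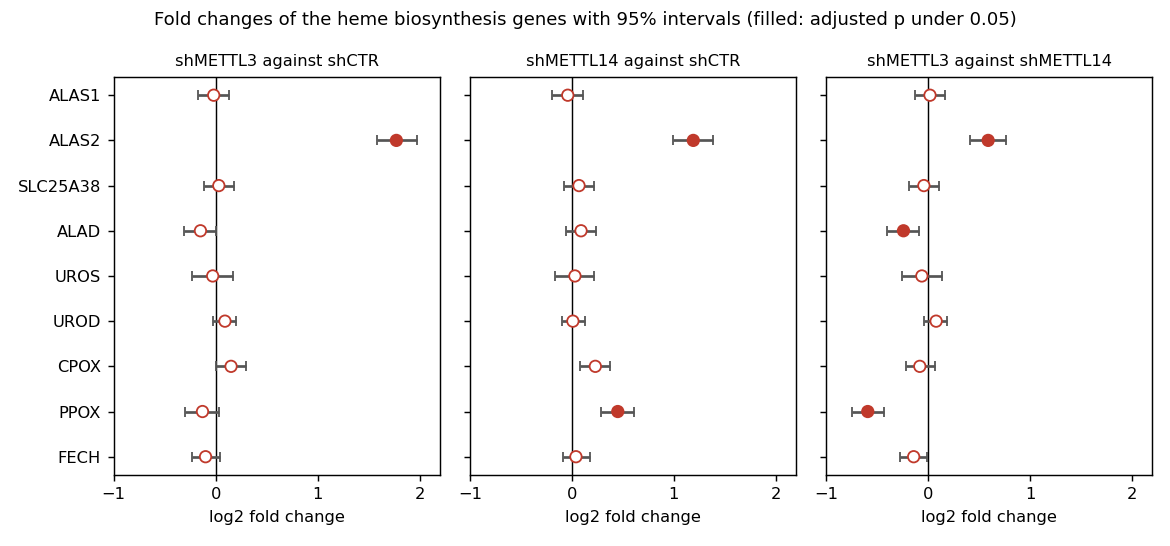
Log2 fold change of each member with its 95% interval from edgeR, for shMETTL3 against shCTR, shMETTL14 against shCTR and shMETTL3 against shMETTL14; filled points have an adjusted p under 0.05. ALAS2 is at 1.77, 1.19 and 0.59, PPOX is filled at 0.45 and -0.59, ALAD is filled at -0.24, and the other members lie between -0.14 and 0.23.

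Over the pathway, the median log2 fold change of the 9 was -0.02 in shMETTL3 and 0.07 in shMETTL14, where that of all genes was 0.0, and the median difference between the knockdowns was -0.06. In shMETTL3, 6 members did not overlap with shCTR, some above and some below it, and 56.0% of all genes did not overlap either. In shMETTL14, 5 members did not overlap, and all 5 were above shCTR, where 25.0% of all genes were above and 48.9% did not overlap in either direction. Between the knockdowns, 7 members did not overlap, against 56.7% of all genes. The 8 members other than ALAS2 had log2 fold changes from -0.15 to 0.15 in shMETTL3.

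Levels per length placed UROD far above the rest of the pathway. In shCTR it had 290 ± 10.5 CPM per kb of the longest transcript (SD, n = 2). FECH followed with 28.9 ± 0.524 and SLC25A38 with 28.4 ± 1.72, and their libraries overlapped. CPOX had 24.6 ± 1.37, ALAS1 20.3 ± 1.01, PPOX 16.1 ± 1.14 and ALAD 15.4 ± 0.926 CPM per kb, and PPOX and ALAD overlapped. ALAS2, with 7.40 ± 0.793, and UROS, with 6.57 ± 0.358, were the lowest, and the gap between them was smaller than the sum of their SDs. ALAS2 held place 8 of 9 in shCTR, place 7 in shMETTL14 and place 5 in shMETTL3. This order depends on the length used: ALAD, UROS, UROD and PPOX have a longest transcript that is not their longest coding one.

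Across the 6 libraries the members did not follow each other as a set. Over 36 pairs, Pearson's r of log2(CPM + 1) ran from -0.96, between ALAS1 and SLC25A38, to 0.88, between ALAD and PPOX, with a median of 0.05. The points of these correlations are only the 6 libraries of 3 lines. Of 12302 genes with at least 50 counts on average, the 5 most like ALAS2 by the same measure were CLSTN1 (r = 0.9968), DMTN (0.9967), ZNF557 (0.9958), ZNF513 (0.9952) and BRD3OS (0.9943). DMTN encodes dematin, a protein of the red cell membrane skeleton. Its level was 26.5 and 29.4 CPM in shCTR, 48.4 and 46.6 in shMETTL3, and 40.9 and 40.4 in shMETTL14. The log2 fold changes of DMTN, 0.77 in shMETTL3 and 0.54 in shMETTL14, were smaller than those of ALAS2, which r does not show. CLSTN1, DMTN and BRD3OS were called in both lines, ZNF513 in shMETTL3 only and ZNF557 in neither.

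Genes around the pathway were read from 7 lists of 89 genes, of which 80 were tested. Beside them, 1544 of all 17686 genes rose and 1368 fell in shMETTL3, and 607 rose and 577 fell in shMETTL14. The counts of single lists below were not tested against these. In shMETTL3, 9 of the 80 listed genes rose and 9 fell, which is 22.5% against 16.5% of all genes. With library size alone 16 rose and 6 fell, and the count called was 30 without shCTR-2, 11 without shMETTL3-1 and 10 without shMETTL3-2. In shMETTL14, 7 rose and 3 fell, which is 12.5% against 6.69%. There the count called was 5 without shCTR-1, 4 without shMETTL14-1 and 3 without shMETTL14-2.

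**Figure D4:**
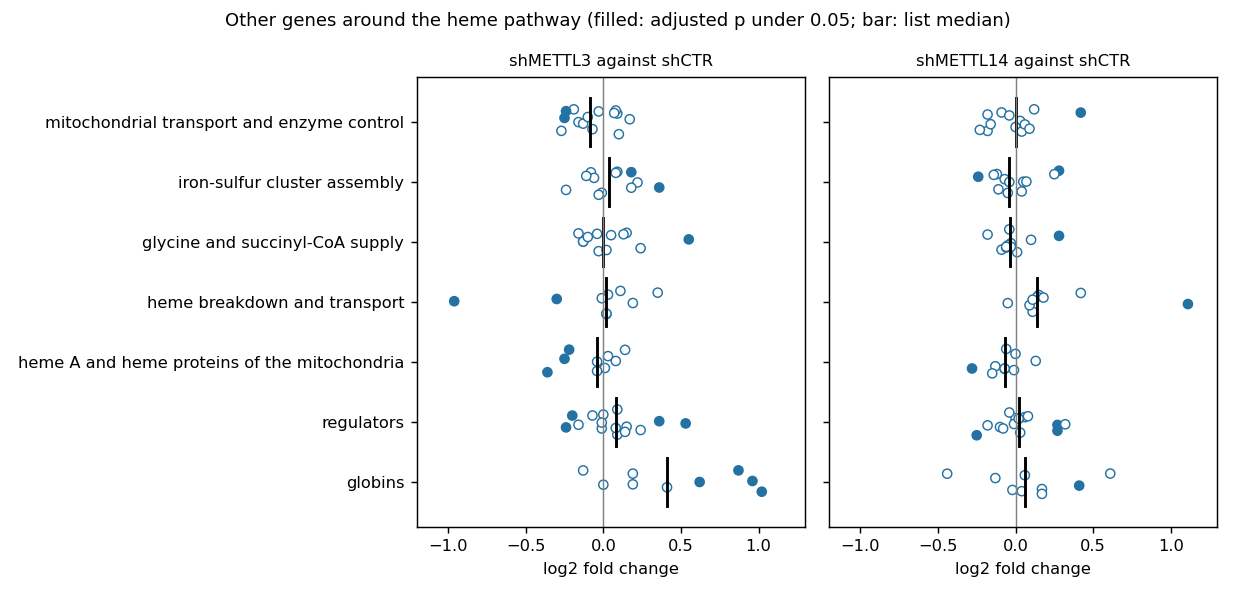
Log2 fold changes of the 80 tested genes in 7 lists around the heme pathway, in shMETTL3 (left) and shMETTL14 (right) against shCTR, with filled points at an adjusted p under 0.05 and a bar at each list's median. The globin list has the highest median in shMETTL3, 0.41, with 4 filled points from 0.62 to 1.02; ABCG2, in heme breakdown and transport, lies at -0.96 on the left and 1.11 on the right.

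For the supply of substrate, 1 of 12 tested genes rose in each knockdown and none fell. It was SLC6A9, the plasma membrane glycine transporter of erythroid cells, with 57.9 and 63.8 CPM in shCTR, 82.8 and 95.1 in shMETTL3, and 76.6 and 71.1 in shMETTL14. Its log2 fold changes were 0.55 (SE 0.0777, adjusted p = 7.35e-05) and 0.28 (SE 0.0785, adjusted p = 0.0367), and the latter was lost in 5 of 13 alternatives. In mitochondrial transport and enzyme control, 0 of 14 rose and 2 fell in shMETTL3. TMEM14C, which carries protoporphyrinogen, the substrate of PPOX, into the mitochondrial matrix, fell by 0.24 on the log2 scale there (SE 0.0607, adjusted p = 0.00913), a call lost without either shMETTL3 library. SLC25A28, an iron carrier, was the other, with a log2 fold change of -0.25 (adjusted p = 0.0482), lost in 10 of 13 alternatives. In shMETTL14, 1 of 14 rose: FAM210B, a mitochondrial protein that aids iron delivery to ferrochelatase, had 96.5 and 101 CPM in shCTR and 128 and 136 in shMETTL14 (log2 fold change 0.42, SE 0.0644, adjusted p = 0.000314).

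Of 12 genes of iron-sulfur cluster assembly, on which FECH depends for its cluster, 2 rose in shMETTL3, and 1 rose and 1 fell in shMETTL14. GLRX5, whose loss lowers ALAS2 protein through the iron-responsive element, rose in both (log2 fold changes 0.18 and 0.28, adjusted p = 0.0485 and 0.00697), the former lost in 8 of 13 alternatives and the latter in 2. IBA57 rose in shMETTL3 (0.36, adjusted p = 0.012), a call lost in 4 of 13 alternatives, DESeq2 among them, where the value ran from 0.22 to 0.44. HSPA9, the mitochondrial chaperone, fell in shMETTL14 (-0.24, adjusted p = 0.014), lost in 2 of 13. FDXR was higher in shMETTL3 than in shMETTL14 (log2 difference 0.23, adjusted p = 0.0226), as was SHMT1, which makes glycine from serine (0.27, adjusted p = 0.0418). These calls were lost in 7 and 6 of 13 alternatives, including DESeq2 and each removal of a knockdown library, with values from 0.15 to 0.26 for FDXR and from 0.19 to 0.34 for SHMT1.

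On the side of heme loss, 0 of 9 tested genes rose and 2 fell in shMETTL3, and 1 rose in shMETTL14. ABCG2, an exporter of porphyrins and drugs, had 17.5 and 16.3 CPM in shCTR, 8.60 and 8.77 in shMETTL3, and 34.4 and 38.5 in shMETTL14. It fell in shMETTL3 (log2 fold change -0.96, adjusted p = 9.56e-06) and rose in shMETTL14 (1.11, adjusted p = 4.68e-07), and the difference between the lines was tested at -2.07 (SE 0.106, adjusted p = 8.97e-11). BLVRA, biliverdin reductase, fell in shMETTL3 (-0.30, adjusted p = 0.00502), a call lost without shMETTL3-1. The row of HMOX1, heme oxygenase, held at most 1 count in any library and was not tested. K562 cells are known to express this gene, and whether the row reflects the cells or the way reads were counted cannot be told from these files. Of 9 tested genes of heme A synthesis and of the complexes and enzymes that hold heme, 3 fell in shMETTL3 and 1 in shMETTL14. They were UQCRH, a complex III subunit that holds no heme itself (-0.22), SDHD (-0.36) and CAT, catalase (-0.25), in shMETTL3, and CAT again in shMETTL14 (-0.28), with adjusted p from 0.000829 to 0.0116. Leaving out 1 library ended the call of UQCRH in 2 cases and those of CAT in 2 and 3.

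Among 15 tested regulators, 2 rose and 2 fell in shMETTL3, and 2 rose and 1 fell in shMETTL14. KLF1, the erythroid factor of CACCC motifs, had 128 and 156 CPM in shCTR, 182 and 184 in shMETTL3, and 173 and 170 in shMETTL14. It rose by log2 fold changes of 0.36 (SE 0.0745, adjusted p = 0.00221) and 0.27 (SE 0.0747, adjusted p = 0.033), the latter lost in 6 of 13 alternatives. ZFPM1, the GATA1 cofactor, rose in shMETTL3 (0.53, adjusted p = 0.00137). LDB1, which bridges GATA1 complexes, fell there (-0.24, adjusted p = 0.0174), as did EIF2AK1, the kinase that holds back globin translation when heme is short (-0.20, adjusted p = 0.0198). LDB1 lost its call in 4 of 13 alternatives and EIF2AK1 in 3, library size alone among them for both (-0.18 and -0.14). In shMETTL14, NFE2 also rose (0.27, adjusted p = 0.0218), and the regulator that fell was LMO2 (-0.25, adjusted p = 0.0411). NFE2 was called in 10 of 13 alternatives and LMO2 in 7. PPARGC1A, a coactivator known to drive ALAS1 in liver, had 2 to 7 counts a library and was not tested.

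Globins take up the heme of red cells. Of 9 tested, 4 rose in shMETTL3 and 1 in shMETTL14, where 8.73% and 3.43% of all genes rose. In shMETTL3 the globins had a median log2 fold change of 0.41 and ran from -0.13 to 1.02, with 5 not called. In shMETTL14 the globins had a median log2 fold change of 0.06 and ran from -0.44 to 0.61, with 8 not called. HBE1, embryonic epsilon globin, had 198 and 220 CPM in shCTR, 381 and 433 in shMETTL3, and 275 and 278 in shMETTL14, with log2 fold changes of 0.96 (SE 0.0687, adjusted p = 1.64e-08) and 0.41 (SE 0.0688, adjusted p = 0.000814). HBE1 thus held the same order of lines as ALAS2, and its difference between the knockdowns was 0.56 (adjusted p = 1.22e-05). HBZ, embryonic zeta globin, rose in shMETTL3 (1.02, adjusted p = 0.000192), as did HBA1 (0.62, adjusted p = 0.000616) and HBA2 (0.87, adjusted p = 1.46e-05), which are near-identical copies, so the split of their reads is uncertain.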

How the data were processed

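The 9 members and the gene lists were chosen with earlier results of these data known. The authors deposited raw counts of reads for each gene, in whole numbers and without scaling, for 6 libraries made from oligo(dT)-enriched mRNA. The submitters' processing notes name HTSeq 0.6.1 and hg38; the aligner, the annotation release and any use of strand are not given in the sources used here. Of 61661 rows, 986 carried no gene name and held 0.635% to 0.703% of the reads. They were kept in the library totals and the fit, and none is reported. Symbols came from a gene name table for 56558 identifiers and from GENCODE 29 for 497 more. No deposited column of sample values was left unused (0 columns).

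In R 4.3.3, edgeR 4.0.16 was run with filterByExpr (minimum count 10, 17686 genes kept), TMM factors and the quasi-likelihood test in a single fit of all 6 libraries, with adjusted p under 0.05 as the threshold. The SE is the log2 fold change over the root of F. The named genes were the 9 members, METTL3 and METTL14, up to 4 genes of each list with an adjusted p under 0.05 in any of the 3 tests, and the 5 genes most like ALAS2. Neighbouring or overlapping genes were named after their values were seen, and so were untested genes, GATA1, NFE2 and LMO2. A gene that meets the rule is not reported here. Simulated data with 200 genes changed by a factor of 2 in shMETTL3 against shCTR gave 93.8% recovered and 5.91% false calls, on average over 5 runs of 17253 genes. The simulation gave every gene the same relative spread and changed only genes above a floor of counts. These shares therefore need not hold for the real libraries or for smaller changes. Alternatives were DESeq2 1.42.0, its size factors or library size alone, no filter, only the compared groups, a replicate block, a GC and length trend (mgcv 1.9.3) and each library left out. Counts in libraries of 1 line differed beyond sampling (chi-square averaged over genes from 2.55 to 5.3), so the errors hold more than sampling. Depth still counted: in shMETTL3 the SE was 0.0548 for UROD and 0.0937 for UROS, which had far fewer counts.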

Additional observations from a re-analysis of the deposited data

Results flagged for a closer look

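The difference between the knockdowns, tested in the fit, picked out 3 of the 9 members. ALAS2 was higher in shMETTL3 than in shMETTL14, by a log2 difference of 0.59 (adjusted p = 6.4e-05), and was higher than shCTR in 2 of 2 libraries of each line. PPOX was lower in shMETTL3 than in shMETTL14, by -0.59 (adjusted p = 2.21e-05), with both shMETTL14 libraries above and both shMETTL3 libraries below shCTR. ALAD was lower in shMETTL3 by -0.24 (adjusted p = 0.0345), also with the lines on opposite sides of shCTR. Against shCTR in the main fit, however, PPOX was called only in shMETTL14, and ALAD in neither line. The p-values are from edgeR's quasi-likelihood test, and with 2 libraries in each line no group was large enough for a check of single outlying samples.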

How the results depend on the processing

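ALAS2 and PPOX, and the targeted genes, kept their direction and their call in all 13 alternatives for each comparison in which they were called. The count of members called in shMETTL3 was 1, and became 2 with library size alone (CPOX added) and 3 with the GC and length trend (ALAD and PPOX added, both lower). With each library left out, it was 1 in shMETTL3, 2 to 3 in shMETTL14 and 2 to 3 between the knockdowns, and the log2 fold changes of METTL3 and METTL14 ran from -0.95 to -0.78 and from -0.82 to -0.71. ALAD between the knockdowns lost its call under DESeq2, library size alone, no filter and each removal of 1 of the 4 knockdown libraries. Near 0, ALAS1 (0.03) and UROS (0.03) in shMETTL3 changed sign with library size alone. Leaving out libraries turned the sign of uncalled members in 10 cases: in shMETTL3, ALAS1 (-0.08 to 0.03), UROS (-0.09 to 0.02) and SLC25A38 (-0.03 to 0.09). The same held in shMETTL14 for ALAS1 (-0.09 to 0.01), UROS (-0.03 to 0.08) and UROD (-0.02 to 0.05), and between the knockdowns for ALAS1 (0.0 to 0.04) and SLC25A38 (-0.09 to 0.02). The cause was not tested.

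Over all genes, 1544 rose and 1368 fell in shMETTL3, and 2158 and 858 with library size alone. In shMETTL14, 607 rose and 577 fell, and 743 and 443 with library size alone. Between the knockdowns 1177 were higher and 971 lower in shMETTL3, and 1399 and 754 with library size alone. DESeq2 called 1757, 712 and 1242 genes in the 3 comparisons, against 2912, 1184 and 2148. No filter left 766 in shMETTL14. With 1 library left out, the counts ran from 1102 (without shMETTL3-2; 1503 without shMETTL3-1) to 3569, from 341 (without shMETTL14-1; 397 without shMETTL14-2) to 1913 (without shCTR-2), and from 942 (without shMETTL14-1, and up to 1123 without another knockdown library) to 2953, so the background shares move with the libraries used. With the replicate block, 1, 3 and 3 members were called in the 3 comparisons, since CPOX joined in shMETTL14 (log2 fold change 0.23, adjusted p = 0.0351), and no other member's call changed. Replicate differences correlated at 0.112, -0.0132 and -0.0272 between lines, which gave little sign of pairing by replicate number. Over all genes, the block called 3264, 1459 and 2478 genes, more than the main fit in each comparison, so pairing cannot be called absent.

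The median transcript length moved the levels in shCTR to 22.8 (ALAS1), 18.5 (ALAS2), 85.6 (ALAD), 21.2 (UROS), 623 (UROD), 67.4 (CPOX), 44.6 (PPOX), 183 (FECH) and 64.9 (SLC25A38) CPM per kb. The longest coding length, added after seeing the data, moved UROS to 7.10, UROD to 412 and PPOX to 22.8.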
